A study of Mus musculus with 33 samples.

Results

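The response of microglia to amyloid was examined in mice that lack the transcription factor Irf8. The comparison set 3 libraries of 5xFAD/IRF8KO microglia against 3 libraries of IRF8KO microglia, chosen by their titles as 6 of the 33 libraries of the series. All 6 came from C57BL/6 mice of 9 months, labelled female. Both groups carry the knockout of Irf8, so the 5xFAD transgenes are the labelled difference between them. The same transgene effect was read with Irf8 present in 3 libraries of 5xFAD (genotype label 5xFAD/WT) and 3 of WT microglia of the same age and strain. The cells were sorted by fluorescence from brains dissociated without enzymes. Nothing in the labels says whether the replicates of a group came from separate litters or days. The p-values therefore measure the spread between libraries, estimated for each gene over all 12 libraries of the 4 groups together.

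Microglia are the resident macrophages of the brain. IRF8 works with PU.1 and other partners to keep the microglial program, and in the blood lineages its loss shifts progenitors from monocytes towards neutrophils. 5xFAD mice express mutant human transgenes of familial Alzheimer disease, APP among them, in neurons from a Thy1 promoter, so the transgenes act on microglia from outside, through the plaques that form. Around plaques, microglia raise a known group of genes in 2 stages: stage 1 includes Apoe, Tyrobp and B2m, and stage 2, which needs the receptor TREM2, includes Cst7, Clec7a and Cd9.

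Genes that 5xFAD raised with Irf8 did not pass the test without it. Apoe, which encodes a lipid carrier, and Cst7, which encodes the protease inhibitor cystatin F, were already high in IRF8KO, and the libraries of IRF8KO and 5xFAD/IRF8KO overlapped, while with Irf8 present both rose steeply. Of 264 such genes, 0 were called in edgeR in the absence of Irf8, and 9 had an unadjusted p under 0.05. Over all 14604 genes tested, 24 (0.164%) were called and 1853 had an unadjusted p under 0.05, so 0 calls lay near the share of all genes. The 24 genes that were called without Irf8 included Gcnt1, a glycosyltransferase gene, and none of the 264. The numbers of calls with and without Irf8 depended on the fit, and the libraries of both groups also held much RNA of other cells.

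The promoters of 3 genes on which the comparison turns are printed first. They run from 250 bases before to 50 bases after a transcription start in RefSeq (GRCm38.p6), read 5′ to 3′ on the strand of the gene. Apoe lies at chr7:19699139-19699438 (minus strand), Cst7 at chr2:150570165-150570464 (plus strand) and Clec7a at chr6:129472730-129473029 (minus strand). Capitals mark the motifs that were searched on both strands: GGAA then any 2 bases then GAAA (the composite of PU.1 and IRF factors), GAAA then any 2 bases then GAAA (the interferon-stimulated response element, whose matches can overlap those of the first), TGANTCA (AP-1) and CACGTG (E-box).
Apoe: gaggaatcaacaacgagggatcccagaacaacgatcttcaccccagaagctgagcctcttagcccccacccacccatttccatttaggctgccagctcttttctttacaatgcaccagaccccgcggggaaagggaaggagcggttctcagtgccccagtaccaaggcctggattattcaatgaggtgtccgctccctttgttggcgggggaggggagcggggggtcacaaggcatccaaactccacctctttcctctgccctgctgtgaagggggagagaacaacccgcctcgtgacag
Cst7: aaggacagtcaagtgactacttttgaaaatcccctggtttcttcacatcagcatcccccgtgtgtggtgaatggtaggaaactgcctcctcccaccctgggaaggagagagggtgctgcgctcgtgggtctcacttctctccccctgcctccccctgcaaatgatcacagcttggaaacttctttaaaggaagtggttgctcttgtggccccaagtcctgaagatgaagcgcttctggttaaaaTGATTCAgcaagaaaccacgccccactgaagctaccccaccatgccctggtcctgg
Clec7a: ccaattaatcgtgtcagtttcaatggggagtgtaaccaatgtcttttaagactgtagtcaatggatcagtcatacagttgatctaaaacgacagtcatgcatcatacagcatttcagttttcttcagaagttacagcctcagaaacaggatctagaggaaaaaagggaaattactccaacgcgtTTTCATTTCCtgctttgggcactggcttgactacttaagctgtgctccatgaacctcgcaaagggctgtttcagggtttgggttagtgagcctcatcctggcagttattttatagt

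None of the 4 motifs was in the Apoe window, Cst7 held an AP-1 match just before its start, and Clec7a held the PU.1-IRF composite on the opposite strand. Over all 32851 promoters of that length, 2.72% held the composite, 3.44% the interferon element, 7.81% AP-1 and 7.15% the E-box. Among 243 promoters of 205 genes raised by 5xFAD with Irf8 the shares were 2.06%, 4.53%, 6.17% and 9.47%. Among 64 promoters of genes whose response differed with and without Irf8 they were 0%, 0%, 7.81% and 4.69%. Among 24 promoters of genes called without Irf8 they were 0%, 0%, 4.17% and 8.33%. A match is a description of the letters and not a bound site.

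The content of the libraries was checked before the genes. Homeostatic microglial genes took 0.885% to 1.82% of gene counts in IRF8KO and 1.39% to 1.79% in 5xFAD/IRF8KO, against 12.9% to 14.4% in WT. Genes of neutrophils took 6.65% to 9.25% in IRF8KO and 8.43% to 15.1% in 5xFAD/IRF8KO, and the 11 genes of their granules were detected in all 6 libraries. Red cell genes took 2.44% to 16.2% and 1.47% to 9.21%. Monocyte genes took 0.632% to 1.54% and 1.25% to 1.66%. Shares that did not overlap between the groups included those of border macrophage genes (0.0902% to 0.106% in IRF8KO, 0.125% to 0.159% in 5xFAD/IRF8KO, with Cd209f and Folr2 at 0 in all 6), oligodendrocyte genes (0.748% to 1.12% against 0.487% to 0.62%), astrocyte genes (0.288% to 0.359% against 0.153% to 0.225%) and mitochondrially encoded genes (6.63% to 7.64% against 2.62% to 4.75%). The other shares without overlap were those of mature neutrophil genes (3.49% to 4.44% in IRF8KO, 4.45% to 6.05% in 5xFAD/IRF8KO), dendritic cell genes (9.75e-05% to 0.000539% against 0.000657% to 0.0043%), platelet genes (0.000865% to 0.00341% against 8.67e-05% to 0.000352%) and Y-linked genes (0.000463% to 0.0149% against 0.023% to 0.0269%). In such bulk libraries, fewer cells of a type and less RNA per cell cannot be told apart.

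**Figure D1:**
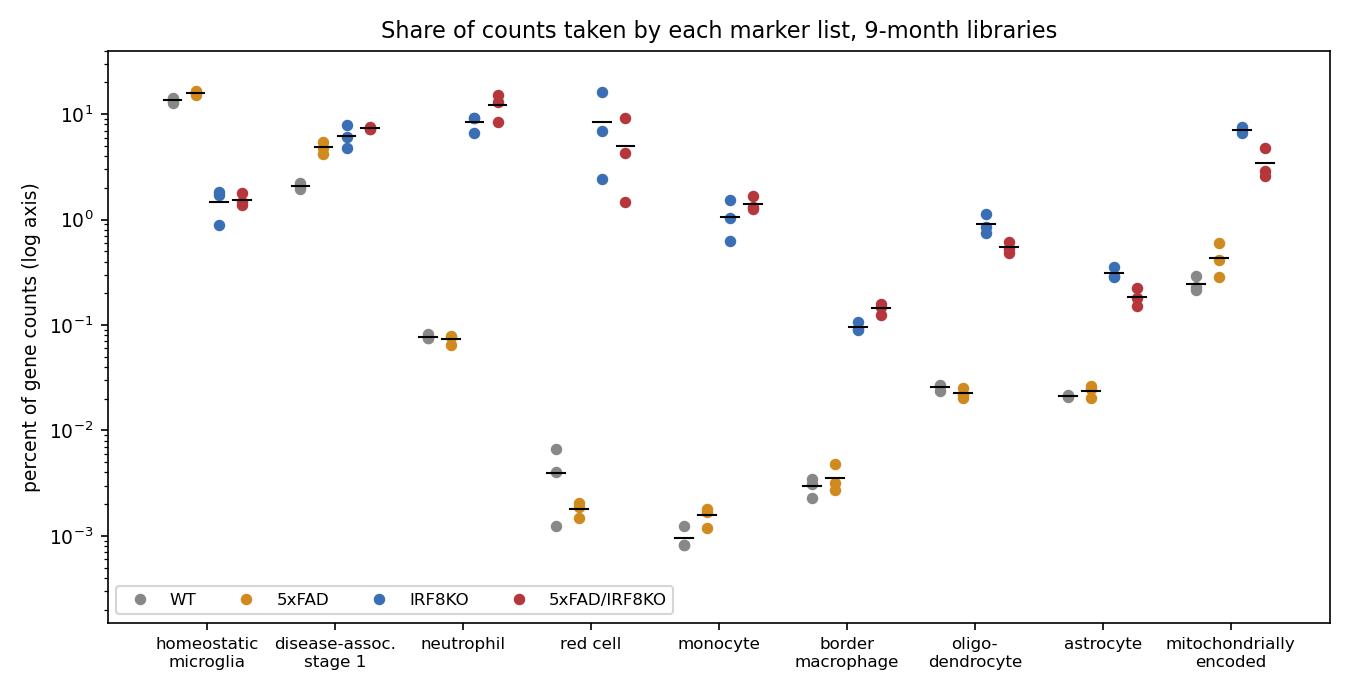
Percent of gene counts taken by 9 of the gene lists (log axis) in the 12 libraries of 9 months; points are libraries and bars are group means. The IRF8KO and 5xFAD/IRF8KO libraries lie apart from WT and 5xFAD in each of the lists drawn except stage 1, where IRF8KO overlaps 5xFAD, and mitochondrially encoded genes took less in 5xFAD/IRF8KO than in IRF8KO.

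Depth also separated the groups. Counts in genes ranged from 7165054 to 8206354 in IRF8KO and from 11723815 to 13077749 in 5xFAD/IRF8KO, which was 48.6% to 53.4% and 56.8% to 72% of their reads. Within each group the 3 libraries were uneven: of 9751 genes with a mean of 5 CPM (read counts scaled to library size) or more in WT or 5xFAD, called the microglia-expressed set here, 664 had 0 counts in one IRF8KO library and 10 CPM or more in another, and 768 did so in 5xFAD/IRF8KO, against 7 in WT and 7 in 5xFAD. Pearson's r of log2 CPM across genes between replicates was 0.694 to 0.757 in the groups without Irf8 and 0.948 to 0.98 in those with it. The tests and intervals below use a single spread per gene, estimated over all 12 libraries. For the comparison without Irf8 they also draw on the closer WT and 5xFAD libraries, so its intervals and p-values can be too small. Although every label says female, Y-linked RNA exceeded Xist RNA in 8 of the 12 libraries, which were all 3 of 5xFAD/IRF8KO, 1 of IRF8KO, all 3 of WT and 1 of 5xFAD. The part of these differences in the results was not tested except where a value is given.

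Irf8 itself (chromosome 8, 120736358 to 120756694, plus strand, GRCm38) was low in both groups. Its level was 140.8, 16.7 and 75.9 CPM in IRF8KO, against 99.8, 79.9 and 95.6 CPM in 5xFAD/IRF8KO, against 586 to 680.5 CPM in WT. The log2 change between the groups without Irf8 was 0.24 with a 95% interval from -0.86 to 1.34. The counts cover the whole gene, and the deleted exons are not given in the sources used here. Batf3, which encodes a partner of IRF8 in dendritic cells, had 0 counts in all 6 libraries.

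Mouse App, the counterpart of a 5xFAD transgene, was not called. It was 170.3, 275.3 and 269 CPM in IRF8KO, against 238.5, 293.6 and 297.1 CPM in 5xFAD/IRF8KO, with a log2 change of 0.21 (95% interval -0.35 to 0.78). Thy1, a neuronal surface gene whose promoter drives the transgenes, differed by 0.05 (-1.68 to 1.79). Reads of the human transgenes were not separated from those of the mouse genes.

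Apoe (ENSMUSG00000002985.16; chromosome 7, 19696109 to 19699188, minus strand) is the stage 1 gene whose change with Irf8 was largest. Its level was 399, 477.3 and 322.2 CPM in WT, while the 5xFAD libraries had 4527, 5290 and 9173 CPM. It was 43000, 27180 and 33100 CPM in IRF8KO, against 36990, 32500 and 47770 CPM in 5xFAD/IRF8KO. The 5xFAD libraries all lay above WT, while the groups without Irf8 overlapped at a level above every 5xFAD library. The log2 change of Apoe was 3.98 with Irf8 (adjusted p = 0.000816) and 0.18 without it (95% interval -0.52 to 0.88, adjusted p = 0.894). The difference of these effects was -3.80 ± 0.47 (SE, adjusted p = 0.0113), and it passed the threshold under 20 of 21 alternative settings. The exception was the fit with a score of Y-linked against Xist RNA (-4.39, adjusted p = 0.154).

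Cst7 (ENSMUSG00000068129.5; chromosome 2, 150570415 to 150578944, plus strand) showed the largest rise of the stage 2 genes with Irf8. It was 9.06, 9.23 and 14.6 CPM in WT, while the 5xFAD libraries had 247, 567.9 and 865.5 CPM. It was 131.9, 146.3 and 145.6 CPM in IRF8KO, against 228.1, 183.4 and 142 CPM in 5xFAD/IRF8KO. Of the latter, 2 libraries lay above all of IRF8KO and 1 lay among them. Its log2 change was 5.73 with Irf8 (adjusted p = 0.000531) and 0.39 without it (95% interval -0.43 to 1.20, adjusted p = 0.757). The difference was -5.35 ± 0.58 (SE, adjusted p = 0.0107), again past the threshold under 20 of 21 alternatives, the exception being limma voom with quality weights (adjusted p = 0.0666).

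**Figure D2:**
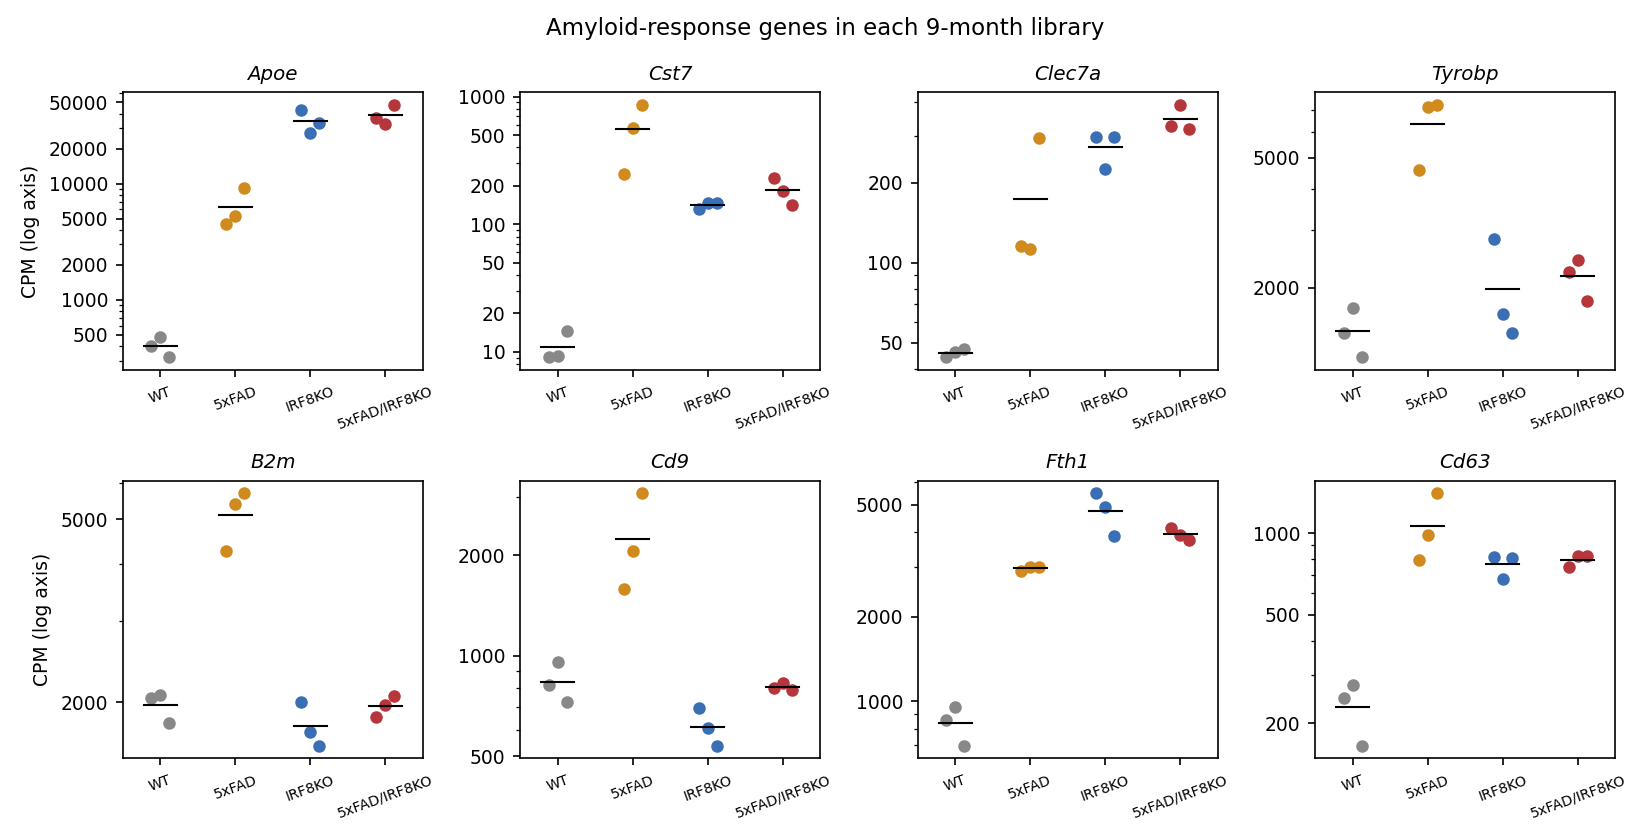
Level of 8 plaque-response genes in CPM (log axes of differing range) in each library of the 4 groups at 9 months; bars are means of 3 libraries. Every gene is higher in 5xFAD than in WT, while IRF8KO and 5xFAD/IRF8KO overlap for all but Clec7a and Cd9, and for Apoe and Fth1 both lie above 5xFAD.

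Stage 1 held 8 genes, all tested. With Irf8, 6 rose (Apoe, B2m, Ctsb, Fth1, Lyz2 and Tyrobp) and the median log2 change was 1.60. Without Irf8, 0 of 8 passed the test in edgeR and 0 had an unadjusted p under 0.05, beside 1853 of all 14604 genes tested. The median was 0.21, beside 0.00 over all genes tested and 0.084 over the 9751 genes of the microglia-expressed set. In edgeR 0.164% of all genes were called without Irf8 and 1.99% with it. The difference of effects was called for Apoe and Fth1.

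Tyrobp, the signalling partner of TREM2, was 2830, 1668 and 1459 CPM in IRF8KO, against 2245, 2437 and 1825 CPM in 5xFAD/IRF8KO, which overlapped. Its log2 change was 0.13 (95% interval -0.51 to 0.77) without Irf8 and 2.09 with it (adjusted p = 0.0123), and the difference of -1.97 missed the threshold (adjusted p = 0.0632). B2m, the light chain of MHC class I, was 2008, 1723 and 1611 CPM in IRF8KO, against 1855, 1977 and 2070 CPM in 5xFAD/IRF8KO. Its change of 0.14 (-0.30 to 0.58) stood beside 1.37 with Irf8 (adjusted p = 0.0139), with a difference of -1.23 that was not called (adjusted p = 0.0787). Fth1, the heavy chain of the iron store ferritin, was 5495, 4892 and 3880 CPM against 4141, 3893 and 3742 CPM, a change of -0.28 (-0.74 to 0.18). With Irf8, Fth1 rose by 1.83 on the log2 scale (adjusted p = 0.0083), and the difference of -2.10 was called (adjusted p = 0.0212).

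Of the 12 stage 2 genes, all tested, 5 rose with Irf8 (Ccl6, Cd9, Clec7a, Cst7 and Ctsl), with a median of 1.36. Without Irf8, 0 of 12 passed and the median was 0.36. Unadjusted p-values under 0.05 came for Itgax and Timp2. Only the difference of Cst7 was called among the 12.

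Clec7a, the receptor dectin-1 and a surface marker of plaque microglia, was 44.2, 46.1 and 47.4 CPM in WT, while the 5xFAD libraries had 115.2, 112.9 and 294.5 CPM. It was 297.2, 225.1 and 296.2 CPM in IRF8KO, against 326.2, 392.1 and 317.4 CPM in 5xFAD/IRF8KO. Those 2 groups did not overlap, but the change of 0.34 (95% interval -0.39 to 1.07) was not called (adjusted p = 0.762), and 5.45% of all genes had every 5xFAD/IRF8KO library above every IRF8KO library while 5.55% had every one below. With Irf8 the change was 1.92 (adjusted p = 0.0226), and the difference of -1.58 was not called (adjusted p = 0.154). Cd9, a tetraspanin gene, was likewise a little higher without overlap, at 695.6, 606.7 and 537.7 against 802, 830.8 and 790.6 CPM, with a change of 0.40 (-0.15 to 0.94, adjusted p = 0.579).

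Itgax, which encodes CD11c, rested on single libraries: 0, 1.38 and 0 CPM in IRF8KO, against 0, 50.2 and 3.99 CPM in 5xFAD/IRF8KO. Trem2 was 454.6, 170.8 and 278 CPM against 292, 344.8 and 686.2 CPM, a change of 0.55 (95% interval -0.29 to 1.39). Lpl, Csf1 and Axl, a lipase, a growth factor and a phagocytic receptor, changed by -0.64 (-2.04 to 0.77), -0.03 (-1.29 to 1.22) and -2.60 (-5.97 to 0.77), and none was called. The intervals of Axl and Itgax were the widest of the 20 disease-associated genes.

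**Figure D3:**
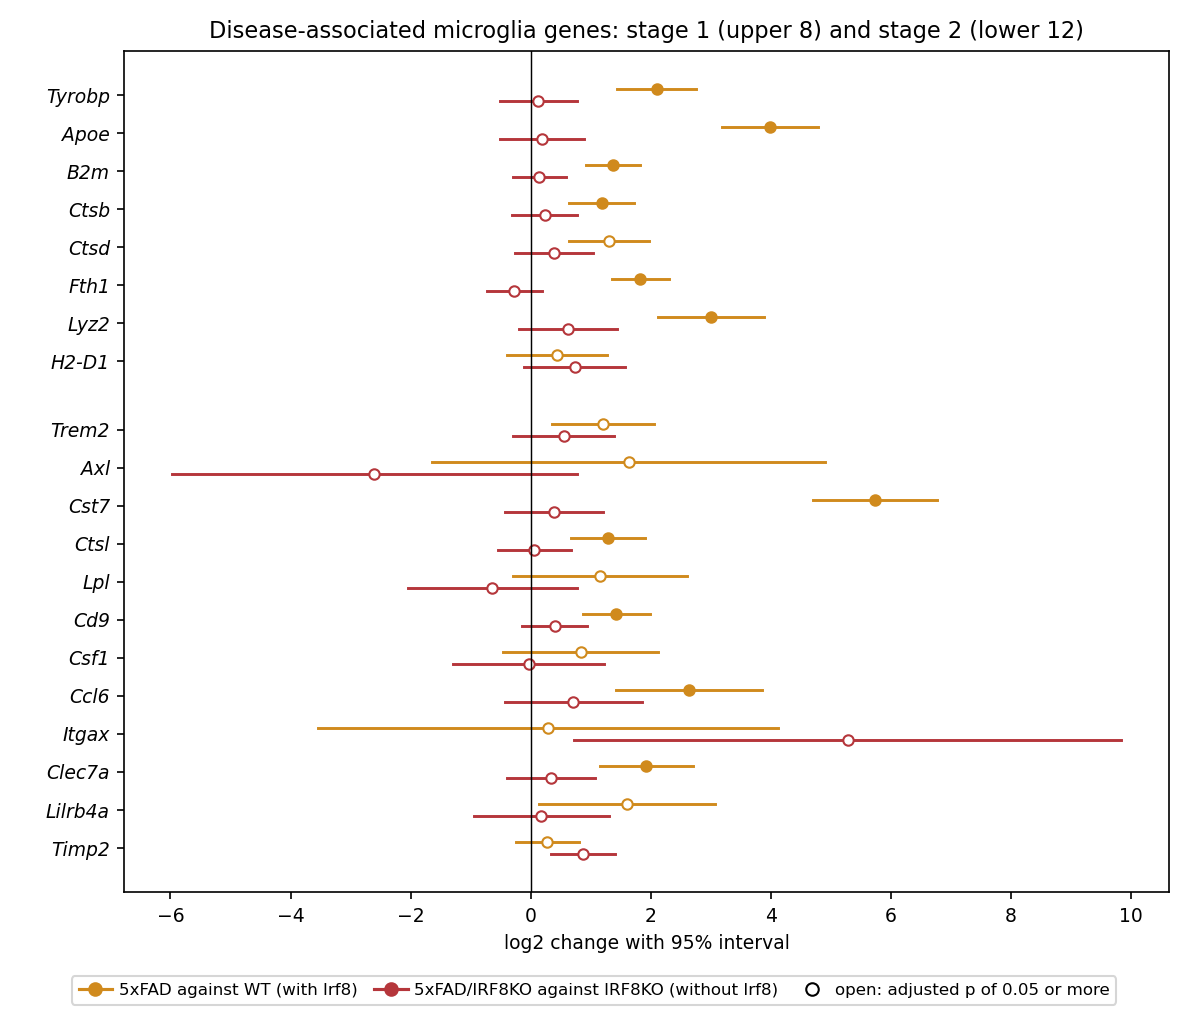
Log2 change with its 95% interval for the 20 disease-associated genes with Irf8 (5xFAD against WT) and without it (5xFAD/IRF8KO against IRF8KO); filled points have an adjusted p under 0.05. All 20 points without Irf8 are open, while 11 of the points with Irf8 are filled.

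A further 28 genes of plaque-reactive microglia were listed, of which 25 were tested. With Irf8, 5 rose (Cd63, Cd68, Cox6a2, Igf1 and Il1b) and the median was 2.44. Without Irf8, 0 passed the test, 3 had an unadjusted p under 0.05 (Baiap2l2, Csf2ra and Il1b) and the median was 0.09. Cd63, a tetraspanin of late endosomes, was 816, 675.2 and 810.5 CPM in IRF8KO, against 748.1, 821.2 and 820.4 CPM in 5xFAD/IRF8KO. Its change of 0.05 (-0.50 to 0.61) differed from the 2.20 with Irf8 by -2.15 (adjusted p = 0.0339). Il1b, the cytokine interleukin 1 beta, was 58.5, 83.7 and 45.9 against 118, 245 and 122 CPM and did not overlap, with a change of 1.37 (adjusted p = 0.301). Spp1 (osteopontin) was 23.2, 98.05 and 72.9 against 30.5, 12.3 and 24.8 CPM and overlapped. Gpnmb was 0.393, 17.6 and 101.6 CPM in IRF8KO, against 19.4, 21.3 and 0 CPM in 5xFAD/IRF8KO. Ccl3 and Ccl4, chemokines of activated microglia, changed by -1.02 (-2.33 to 0.30) and -0.58 (-2.81 to 1.65), and neither was called.

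The whole set of genes that responded to 5xFAD with Irf8 was then read without it. The 2 comparisons share no library, though they share the estimate of the spread. With Irf8, 264 genes rose (1.81% of those tested) and 26 fell (0.178%). For the 264, the median log2 change was 1.47 with Irf8 and -0.05 without it, with the middle 50% of genes between -0.265 and 0.168. Of them, 111 (42%) lay above 0 without Irf8, beside 49.3% of all genes. The microglia-expressed set held 262 of the 264, and in that set 5315 of 9751 genes lay above 0. In edgeR 0 of the 264 were called, with 9 at an unadjusted p under 0.05, beside 24 and 1853 of all 14604 genes. In DESeq2, 2 of the 264 were called. The genes were chosen on their change with Irf8, so a smaller change without it is no test. The difference itself was called for 31, but it contains the change on which they were chosen and is no separate evidence. Across 23 alternative settings the median stayed between -0.192 and 0.044. The number of calls with Irf8 depended on single libraries: leaving out 1 WT or 5xFAD library gave between 2 (5xFAD replicate 2) and 102 (5xFAD replicate 1). All 3 WT libraries had more Y-linked than Xist RNA and 2 of 3 5xFAD libraries had less, and with a score of Y-linked against Xist RNA as a covariate the calls with Irf8 went from 290 to 2.

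The 26 genes that fell with Irf8 had medians of -1.68 with and 0.37 without it. Of these, 21 lay above 0 without Irf8, 1 was called (Hspa1b, which rose) and 8 had a called difference. That difference, too, contains the change on which the 26 were chosen. In all, 64 genes differed in their response to 5xFAD (0.438%), of which 36 had the lower change without Irf8 (0.247%) and 28 the higher (0.192%). Leaving out 1 library gave between 2 (5xFAD replicate 2) and 189 (5xFAD/IRF8KO replicate 3) such genes, within 1.5 times of 64 only without 5xFAD/IRF8KO replicate 2. With the score of Y-linked against Xist RNA, 1 gene differed. With DESeq2-type size factors 48 differed and 30 of these were higher without Irf8; with TMM factors computed on the microglia-expressed set the numbers were 37 and 23. The rises with Irf8 numbered 166 of 205 and 125 of 157 under those scalings. The last of them also moved the median change of all genes without Irf8 from 0.00 to -0.132.

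**Figure D4:**
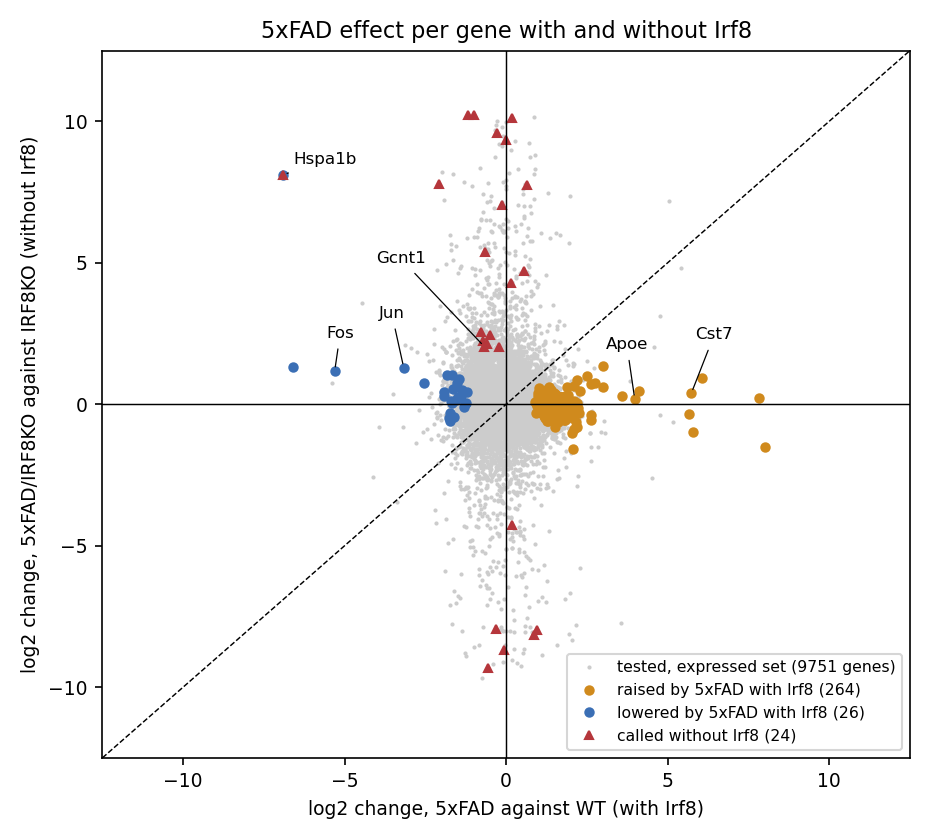
Log2 change of each gene of the microglia-expressed set and each called gene, with Irf8 (horizontal) and without it (vertical); the dashed line marks equal changes. Genes raised by 5xFAD with Irf8 lie along the horizontal axis near 0 on the vertical axis. Most genes called without Irf8 lie near the vertical axis, but Hspa1b lies far from it, at -6.90 with and 8.11 without Irf8.

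Exonic length moved with this pattern. The median over gene models was 4194 bases for all genes tested, 1729 for the 264 raised and 11171 for the 26 lowered with Irf8. It was 1566 bases for the 36 genes with the lower and 5275 for the 28 with the higher change without Irf8. The part of length in the counts was not tested. Apoe and Cst7 belong to the short genes, with exonic lengths of 2138 and 986 bases, and were not compared with genes of like length.

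Immediate early and heat shock genes, which answer stimulation and stress, had called differences of the other sign. Of 22 tested, 5 fell with Irf8 (Dusp1, Fos, Hspa1a, Hspa1b and Jun), and 4 of those had a higher change without Irf8 (Fos, Hspa1a, Hspa1b and Jun). Fos, a transcription factor gene of the early response to stimulation, was 119.7, 40.3 and 30.4 CPM in WT, while the 5xFAD libraries had 2.18, 0.942 and 1.55 CPM. It was 117.7, 71.85 and 71.4 CPM in IRF8KO, against 239.7, 248.8 and 101.9 CPM in 5xFAD/IRF8KO, which overlapped. The log2 change of Fos was -5.31 with Irf8 (adjusted p = 0.0083) and 1.18 without it (adjusted p = 0.369), a difference of 6.49 (adjusted p = 0.0121). Jun was 55.5, 11.6 and 25.1 against 77.8, 63.3 and 85.0 CPM without Irf8, a change of 1.29 that was not called (adjusted p = 0.297), and its difference from -3.17 with Irf8 was 4.46 (adjusted p = 0.0339).

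Hspa1b, an inducible chaperone gene of chromosome 17 with the near-identical neighbour Hspa1a, was 567.4, 156.8 and 130.1 CPM in WT. It was 0, 0 and 0.256 CPM in IRF8KO, against 16.7, 4.17 and 69.1 CPM in 5xFAD/IRF8KO. The 2 counts of IRF8KO give a ratio of 325 (95% counting interval 89.8 to 2689), and Hspa1b was called (adjusted p = 0.0415). Reads shared by such copies were not counted, so the split between Hspa1b and Hspa1a is uncertain.

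In the comparison without Irf8 itself, 24 genes were called (0.164% of those tested), 18 higher in 5xFAD/IRF8KO (0.123%) and 6 lower (0.0411%). The microglia-expressed set held 22 of the 24, beside 9751 of all 14604 genes tested. An unadjusted p under 0.05 was found for 1853 genes. The calls depended on having the WT and 5xFAD libraries in the fit: with the 6 libraries alone, 0 genes were called and 502 had an unadjusted p under 0.05. With the score of Y-linked against Xist RNA in the fit of 12 libraries, 0 were called and 1636 had an unadjusted p under 0.05. Without 5xFAD replicate 2 there were 0 calls, and without any other WT or 5xFAD library there were 2, which were Gcnt1 and the predicted gene Gm3608. Without one of the libraries compared there were between 38 (without 5xFAD/IRF8KO replicate 1) and 140 (without 5xFAD/IRF8KO replicate 3).

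Gcnt1 (chromosome 19, 17326141 to 17372844, minus strand), which encodes an enzyme that branches O-linked sugar chains, shared the smallest adjusted p with Gm3608. It was chosen here after its values were seen, as were Fam111a, Rtn4rl1 and Adcy7 below and Fos above. Gcnt1 was 60.8, 73.85 and 54.7 CPM in IRF8KO, against 250.8, 243.4 and 285.7 CPM in 5xFAD/IRF8KO. The libraries of each group lay close together and the groups were far apart. The log2 change was 2.04 ± 0.24 (SE, adjusted p = 0.0103), and it was called under 16 of 23 alternatives. Gcnt1 was not called in the 6 compared libraries alone or in those 6 with a score of neutrophil genes. Other settings without a call of Gcnt1 included limma voom with quality weights, the score of Y-linked against Xist RNA, the replicate number as a block, and the fit without 5xFAD replicate 2. With Irf8, Gcnt1 was 305, 342.3 and 249.2 CPM in WT, while the 5xFAD libraries had 218.9, 157.9 and 185.3 CPM, and 5xFAD/IRF8KO lay near the level of WT. The difference of effects was 2.72 (adjusted p = 0.0107).

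Other genes rose from a measurable level. Fam111a, a gene linked to DNA replication and antiviral restriction, was 39.7, 57.6 and 51.9 CPM in IRF8KO, against 246.4, 196.4 and 170.2 CPM in 5xFAD/IRF8KO, a log2 change of 2.04 (adjusted p = 0.0198). Rtn4rl1, of the Nogo receptor family, was 8.39, 9.04 and 5.64 CPM against 41.0, 24.5 and 35.3 CPM, a change of 2.13 (adjusted p = 0.0198). Adcy7, an adenylate cyclase gene, was 12.6, 15.6 and 14.1 CPM against 43.6, 70.9 and 86.2 CPM, a change of 2.24 (adjusted p = 0.0299). Rtn4rl1 and Adcy7 stood at 332.6 to 415.2 CPM and 92.3 to 136.3 CPM in WT, above both groups without Irf8.

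Slc16a6, a transporter gene, was 6.69, 12.4 and 4.10 CPM in IRF8KO, against 58.7, 38.1 and 30.1 CPM in 5xFAD/IRF8KO, a log2 change of 2.45 (adjusted p = 0.0432). Zhx1, a zinc finger and homeobox gene, was 13.8, 30.95 and 13.6 CPM against 123.7, 109.4 and 112.7 CPM, a change of 2.57 (adjusted p = 0.049). Wdr73 was 0.918, 0.153 and 2.18 CPM against 15.2, 30.2 and 43.1 CPM. Tlr3, the receptor for double-stranded RNA, was 0, 0.153 and 1.41 CPM in IRF8KO, against 29.5, 22.6 and 16.9 CPM in 5xFAD/IRF8KO, against 89.35 to 114.1 CPM in WT. Its log2 change was 5.38 ± 0.84 (SE, adjusted p = 0.0312). In these 4 genes no library of IRF8KO reached the lowest of 5xFAD/IRF8KO, which the rule for naming them required.

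For a further group the IRF8KO libraries held almost no counts. Nlrp1a, an inflammasome sensor gene, had 0 counts in all 3 IRF8KO libraries and 40.7, 9.17 and 15.8 CPM in 5xFAD/IRF8KO, at least 164-fold higher against 3 counts over the group. Zbtb25, Ddx51, Xrcc2 and, outside the microglia-expressed set, Ercc6l were likewise at 0 in IRF8KO. Zbtb25 was at least 148-fold higher, with 25.9, 20.5 and 13.7 CPM. Ddx51 was at least 103-fold higher, Xrcc2, a gene of homologous recombination, at least 86.5-fold and Ercc6l at least 161-fold. Gdap10 rested on 2 counts in IRF8KO against 18.8, 21.1 and 31.1 CPM. Mov10, an RNA helicase gene, was 0.131, 0 and 0.897 CPM against 91.4, 46.3 and 10.01 CPM, which spread widely. Fits of such genes carry adjusted p-values from 0.0183 (Zbtb25) to 0.0432 (Mov10).

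H2-Aa, a chain of MHC class II, was the only called member of the antigen presentation lists. It was 0, 0 and 0.128 CPM in IRF8KO, against 10.4, 13.4 and 16.3 CPM in 5xFAD/IRF8KO. With 1 count in IRF8KO, the ratio was 292 (95% counting interval 52.1 to 11550; adjusted p = 0.0312). Of 11 class II genes tested, 9 lay above 0 without Irf8, with a median of 0.36. H2-Ab1 was 2.75, 0.46 and 0 CPM against 18.5, 39.6 and 8.99 CPM without overlap, a change of 4.35 that was not called (adjusted p = 0.139). Cd74, the invariant chain, was 1.05, 7.20 and 3.97 CPM against 123.1, 110.3 and 0 CPM, so the libraries of 5xFAD/IRF8KO disagreed. Dendritic cell, lymphocyte and border macrophage cells also use class II. The share of dendritic cell genes was higher in every 5xFAD/IRF8KO library than in any IRF8KO library, as given above. Of 7 such genes, Clec9a, Itgae and Xcr1 were at 0 in all 6 libraries, and of the 4 tested, 3 lay above 0, with a median of 2.26 and 0 called. Lymphocyte genes took 0.0141% to 0.16% in IRF8KO and 0.0272% to 0.0673% in 5xFAD/IRF8KO, and border macrophage genes were higher in 5xFAD/IRF8KO, as given above. Their part in H2-Aa was not tested.

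**Figure D5:**
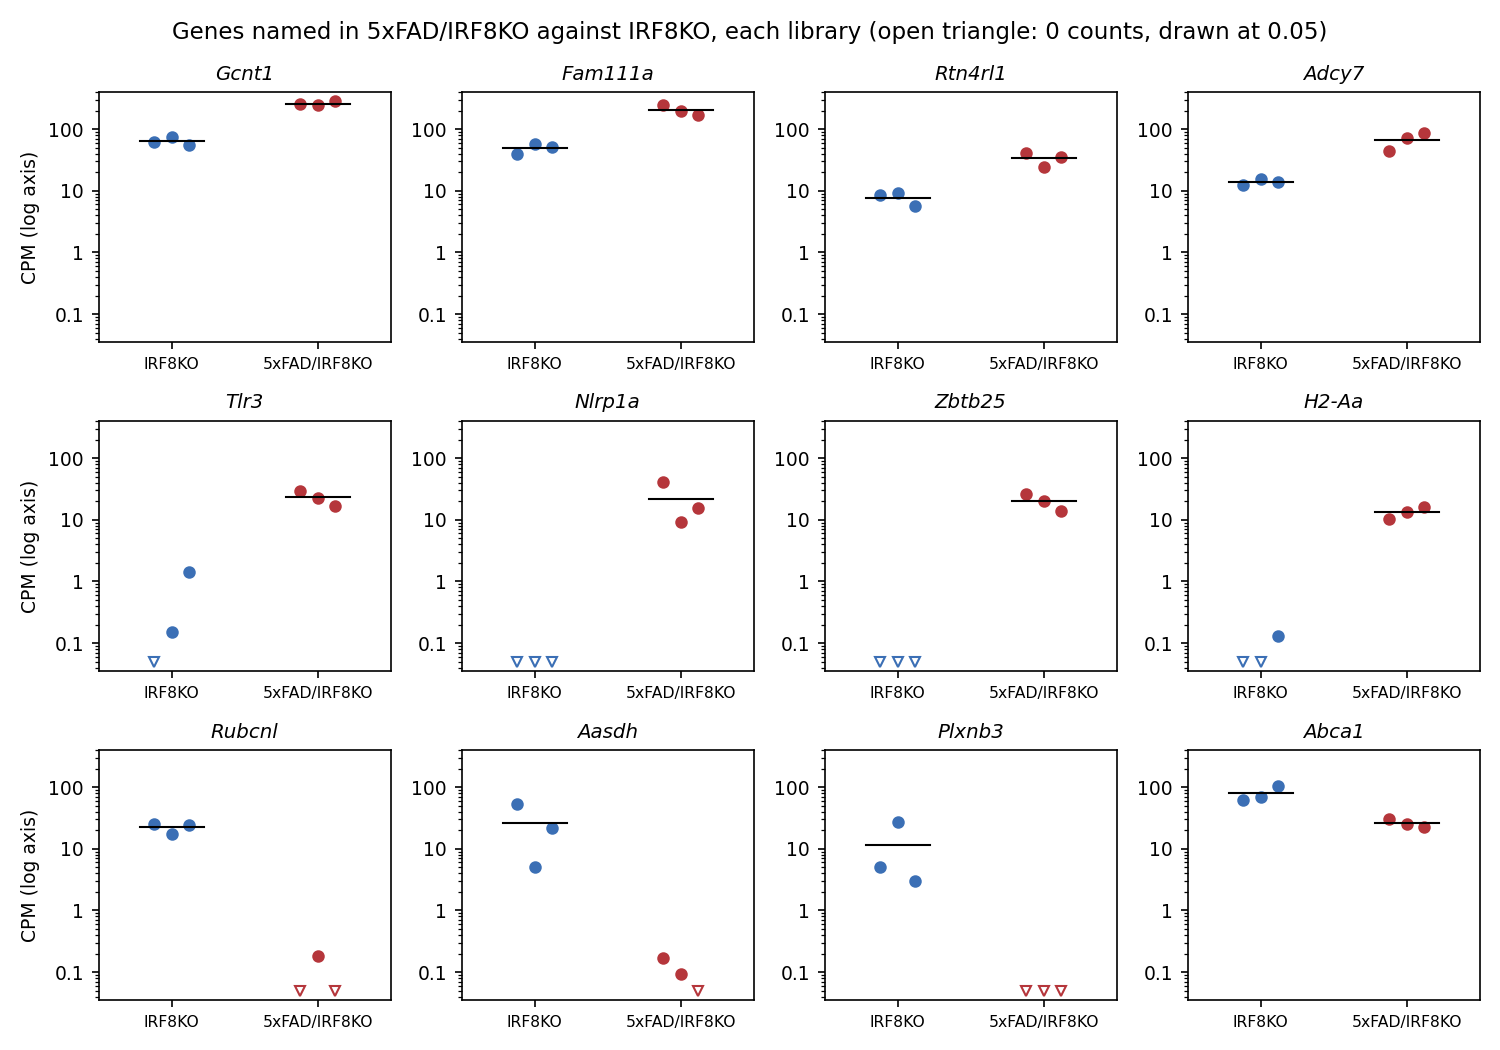
CPM on a log axis of 12 genes named in the comparison of 5xFAD/IRF8KO with IRF8KO, 1 point per library. Bars are group means, drawn only where no library of the group had 0 counts. Open triangles mark libraries with 0 counts. Gcnt1, Fam111a, Rtn4rl1 and Adcy7 are measured in every library, while Nlrp1a and Zbtb25 are at 0 in every IRF8KO library and Plxnb3 at 0 in every 5xFAD/IRF8KO library.

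The 6 genes that fell were near 0 in 5xFAD/IRF8KO, except Dnajc18. Rubcnl, an autophagy gene, was 25.4, 17.2 and 24.35 CPM in IRF8KO, against 0, 0.185 and 0 CPM in 5xFAD/IRF8KO (adjusted p = 0.0413). Zfp874a was 9.83, 40.9 and 8.20 CPM against 0.0856, 0.0927 and 0 CPM (adjusted p = 0.026). Aasdh was 52.3, 5.06 and 21.4 CPM against 0.171, 0.0927 and 0 CPM (adjusted p = 0.0299). Plxnb3, a semaphorin receptor gene, was 5.11, 26.8 and 2.95 CPM in IRF8KO and at 0 in all 5xFAD/IRF8KO libraries, at least 120-fold lower. Nek8, outside the microglia-expressed set, was 22.7, 24.8 and 12.4 CPM against 0, 0.0927 and 0 CPM. Dnajc18 was 81.4, 64.65 and 18.2 CPM against 1.29, 2.97 and 4.17 CPM, a log2 change of -4.28 ± 0.66 (SE, adjusted p = 0.0299).

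Exons of 7 called genes overlap another gene: Gdap10 with Nampt, Slc16a6 with Amz2 and Arsg, Tlr3 with Gm45542, Zhx1 with Gm29394, Fam111a with A330040F15Rik, Gm3608 with AC124553.1 and Dnajc18 with 1700066B19Rik. Strand was not used, and reads that were ambiguous between genes stayed out of the counts, so stretches shared by such pairs can be undercounted.

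These genes at or near 0 in a whole group stand beside a general feature of the libraries without Irf8: 123 genes of the microglia-expressed set had 0 counts in all 3 IRF8KO libraries and 141 in all 3 of 5xFAD/IRF8KO, against 0 in WT and 0 in 5xFAD. The microglia-expressed genes at 0 made up 3.85% to 8.99% of the set in single libraries without Irf8 and 0.0513% to 0.544% in those with it.

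Abca1, the exporter that loads cholesterol onto ApoE, was the fall next closest to the threshold. It was 62.8, 70.2 and 106.1 CPM in IRF8KO, against 30.5, 25.7 and 22.8 CPM in 5xFAD/IRF8KO, with no overlap. The log2 change was -1.60 (95% interval -2.21 to -0.98), not called (adjusted p = 0.0549), but called under 7 of 23 alternatives. With Irf8 it was -0.96 (adjusted p = 0.119), and the difference of -0.64 was not called (adjusted p = 0.511). Nr1h3, which encodes the sterol sensor LXR-alpha, was 0, 0 and 0.385 CPM against 13.2, 13.6 and 12.4 CPM (not called, adjusted p = 0.122). Of 24 lipid genes tested, 0 were called without Irf8, 3 had an unadjusted p under 0.05 (Abca1, Nr1h3 and Soat1) and the median was -0.04. Of 19 cholesterol synthesis genes 0 were called, 0 had an unadjusted p under 0.05, and the median was -0.15.

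Outside the microglia-expressed set, Aplnr, the apelin receptor gene, was at 0 in IRF8KO and at 62.8, 14.8 and 26.7 CPM in 5xFAD/IRF8KO, at least 259.9-fold higher but not called (adjusted p = 0.0557). Hist1h3d, a histone gene, was 11.5, 9.04 and 3.72 CPM against 0.0856, 0 and 0 CPM (adjusted p = 0.0606).

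Homeostatic genes mark resting microglia. Of 31 tested, 0 were called without Irf8, 17 lay above 0, the median was 0.15, and 6 had an unadjusted p under 0.05 (Lag3, P2ry12, Rnase4, Sall1, Slco2b1 and Upk1b). P2ry12, the purinergic receptor, was 245.7, 147.1 and 368.3 CPM in IRF8KO, against 476.6, 323.4 and 495.5 CPM in 5xFAD/IRF8KO, against 6457 to 9621 CPM in WT. Its change of 0.77 (95% interval 0.06 to 1.47) was not called (adjusted p = 0.339). Tmem119 changed by 0.31 (-0.45 to 1.07), Cx3cr1 by 0.18 (-0.68 to 1.03) and Siglech by -0.20 (-0.80 to 0.39). Sall1, the factor that marks microglia among macrophages, was 0.393, 0 and 19.2 CPM in IRF8KO and at 0 in 5xFAD/IRF8KO, so that its difference rested on IRF8KO replicate 3.

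Lysosomal genes held 32 tested members, of which 6 rose with Irf8 and 0 were called without it, with medians of 0.62 and 0.25. Ctsb, the protease cathepsin B, was 2699, 1503 and 1665 CPM in IRF8KO, against 2229, 2310 and 2339 CPM in 5xFAD/IRF8KO. Its change was 0.23 (95% interval -0.31 to 0.77) without and 1.18 with Irf8 (adjusted p = 0.0357), and the difference of -0.95 was not called (adjusted p = 0.227). Ctsd, cathepsin D, changed by 0.39 (-0.26 to 1.04). Lamp2, a membrane protein of lysosomes, was 476, 642 and 474 against 832, 880 and 700 CPM without overlap, a change of 0.60 (adjusted p = 0.256), while 4 of the 32 had an unadjusted p under 0.05.

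Genes of iron handling and antioxidant defence held 19 tested members. With Irf8, 4 rose (Fth1, Gpx1, Gpx4 and Prdx1), without it 0, with 1 at an unadjusted p under 0.05 (Tfrc), and the difference was called for Fth1, Gpx4 and Prdx1. Prdx1, a peroxidase, was 425, 404 and 403 CPM in IRF8KO, against 331, 237 and 340 CPM in 5xFAD/IRF8KO, lower without overlap but not called (-0.44, adjusted p = 0.397).

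Interferon-stimulated genes, a class that IRF factors control, held 39 tested members with 0 called without Irf8, 4 at an unadjusted p under 0.05 and a median of 0.28, and 1 called with Irf8 (Ifitm3) with a median of 0.79. Ifit3 was 34.5, 4.75 and 17.8 CPM in IRF8KO, against 9.16, 9.17 and 10.2 CPM in 5xFAD/IRF8KO, a change of -0.998 (95% interval -2.51 to 0.52). Of 16 MHC class I genes 0 were called without Irf8, 2 had an unadjusted p under 0.05 (H2-Q4 and Psmb9) and the median was 0.49. Of 25 chemokine and cytokine genes 0 were called and 5 had an unadjusted p under 0.05, with a median of 0.11 beside 1.33 with Irf8.

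The remaining lists gave like counts of calls. Without Irf8, 0 members were called among 27 complement and phagocytic receptor genes (1 at an unadjusted p under 0.05, median 0.14), 14 genes of TREM2 signalling (4, median 0.62), 32 transcription factors (5, median 0.26), 31 cell cycle genes (1, median 0.38), 13 glycolysis genes (0, median 0.11) and 6 NADPH oxidase genes (1, median 0.58). Of the 14 TREM2 signalling genes, 13 lay above 0 without Irf8 and 5 with it. With Irf8 their median was -0.51, though 2 were called higher (Hcst and Tyrobp). Their median difference of effects was 1.34, opposite in sign to the disease-associated lists, with 0 called. Among the transcription factors, Spi1, which encodes PU.1, had a log2 change of 0.68 that was not called (0.05 to 1.31, adjusted p = 0.346).

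No gene of the lists for other cells was called between the groups without Irf8, though several leaned one way. All 5 genes of primary neutrophil granules and all 6 of later granules lay above 0, with medians of 1.26 and 0.82, and Ctsg was 79.2, 43.4 and 21.4 CPM against 275, 511 and 318 CPM without overlap (adjusted p = 0.0946). All 11 oligodendrocyte genes lay below 0 (median -0.73), as did all 8 astrocyte genes (-0.76) and 11 of 12 neuron genes (-0.81). F13a1, of border macrophages and monocytes, was 48.2, 224 and 53.6 CPM against 413, 359 and 378 CPM without overlap (adjusted p = 0.181). With the neutrophil score as a covariate in the 6 libraries, 0 genes were called and 490 had an unadjusted p under 0.05.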

How the data were processed

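RNA counts came from the 12 libraries of 9 months. The deposited whole-number counts per gene were used as the authors left them, in the column that ignores strand, so overlapping and antisense genes cannot be separated by strand. The submitters' processing notes name bcl2fastq, STAR 2.5.2b, Picard 2.17.11, Subread, featureCounts and mm10, with no roles. Reads mapped to several places or to no gene stayed out, as did reads ambiguous between genes (2.25% to 7.87% of reads per library). Counts in genes were 605376 to 13077749 per library. The chemistry (SMART-Seq v4) has no molecular identifiers, so intervals on counts cover counting error only. Symbols came from GENCODE M21 (GRCm38), which held 54079 of 54146 identifiers.

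Tests used the quasi-likelihood test of edgeR 4.0.16 (R 4.3.3) on all 12 libraries in 1 model of 4 groups, after its default filter (14604 genes) and TMM scaling, with Benjamini-Hochberg adjustment and calls under 0.05. All adjusted p-values come from it unless another tool is named. The fitting code was run on simulated data drawn with the same spread in every group, which does not test the error rate at the unequal spreads seen here. Standard errors derive from its F statistic. Same-numbered libraries were not treated as pairs. The difference of effects is the interaction term. Where a group had 0 counts, a fold is a bound against 3 counts over the group.

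Named genes were, within the microglia-expressed set, up to 12 called genes per direction by size with no overlap and 5 CPM or more in the higher group, the closest uncalled ones to fill 6, like rules outside the set and for the interaction, a fixed group, and 4 per list (2 by level, 2 by p). Predicted genes were passed over: Gm3608 in the comparison, Gm3608 and CT010467.1 in the interaction. The members and lists were chosen with earlier results of these data known. Alternatives were other scalings and filters, DESeq2 1.42.0, limma 3.58.1, covariates, the compared libraries alone, and each library left out. Results on 2 genes are not reported here.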

Additional observations from a re-analysis of the deposited data

Results flagged for a closer look

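The 5xFAD effect differed between the libraries with and without Irf8 for 64 genes in the interaction test of edgeR. The libraries without Irf8 also held much RNA of other cells, whose part in these differences was not tested. The number of genes depended on the fit, as given below. Among genes named above, a plaque-response or antioxidant gene had the lower change without Irf8 in 6 cases, with adjusted p-values of Apoe 0.0113, Cst7 0.0107, Cd63 0.0339, Fth1 0.0212, Gpx4 0.0495 and Prdx1 0.0212. The chaperone and immediate early genes had the higher change, with adjusted p-values of Hspa1b 0.0107, Fos 0.0121, Hspa1a 0.0404 and Jun 0.0339. Of the genes called in the comparison without Irf8 itself, those with the higher change had adjusted p-values of Ddx51 0.029, Ercc6l 0.0404, Gdap10 0.0208, Nlrp1a 0.0212, Slc16a6 0.0495, Tlr3 0.0395, Xrcc2 0.0404, Zbtb25 0.0212, Zhx1 0.0451, Adcy7 0.0325, Fam111a 0.0371, Gcnt1 0.0107, Gm3608 0.0261 and Rtn4rl1 0.0212. Those with the lower change had Aasdh 0.0458, Dnajc18 0.0495, Nek8 0.0429, Rubcnl 0.0404 and Zfp874a 0.029. The genes called without Irf8, Hspa1b among them, were chosen on a change that is itself a part of the difference. Of those 24 genes, 20 had a called difference, which is therefore no separate evidence. The same holds for the called differences among the 264 genes raised and the 26 lowered with Irf8. Groups of 3 libraries were not examined for single outlying values.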

How the results depend on the processing

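Without Irf8, 24 genes were called. DESeq2 called 714 and a fit with no filter on low counts 320. A fit with the Y-linked and Xist score, limma voom, the 6 libraries compared alone and those 6 with the neutrophil score each called 0, with 1636, 1139, 502 and 490 genes at an unadjusted p under 0.05. With Irf8, 290 genes were called, against 900 by DESeq2, 163 with no filter, 157 with TMM on the microglia-expressed set, 2 with the Y-linked and Xist score, 3821 by limma voom and 4546 in the 6 libraries compared. The effects differed for 64 genes, against 898, 238, 37, 1 and 11 under the first 5 of these. In the 8 libraries with more Y-linked than Xist RNA, a setting chosen after seeing the data, 120, 2 and 13 genes were called.

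Leaving out each of the 12 libraries in turn gave 0 to 140 calls without Irf8, 2 to 364 with it and 2 to 189 for the difference. The lowest counts came without 5xFAD replicate 2. Replicate numbers are shared across groups but did not pair the libraries: same-numbered libraries without Irf8 correlated in their deviations at 0.0042, -0.0394 and 0.0444. With the replicate number as a block, 0 genes were called without Irf8, 1489 at an unadjusted p under 0.05, 105 with Irf8 and 9 for the difference. Of the alternatives run on named genes, none reversed a called direction. Genes at or near 0 in a whole group rest on few counts, and the depth of WT replicate 3 was 605376 counts.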
